A study of Mus musculus with 18 samples.

Results

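In mouse macrophage-like RAW cells 6 cytokine genes were followed over 22 h of stimulation, namely the IL-6 type cytokines Il6, Lif and Osm and the colony-stimulating factors Csf1, Csf2 and Csf3. They were chosen by name, and every probe set annotated to them on the array was read, 10 of the 45101 on the array. All 6 were among the 12257 genes that entered the tests, which required 3 or more arrays with an intensity above 18.05, the median of all readings. Il6 and Csf3 passed that filter through stimulated arrays alone, since none of the 6 medium arrays was above the level. Lif had 1 medium array above it, too few to pass without stimulated arrays. A gene that passes in this way had to differ between arms, so the counts and medians of members against medium are descriptions. So are the differences of Il6, Lif and Csf3 from medium, and the changes of these differences between hours.

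The cells stayed in medium or were given R848, a synthetic agonist of Toll-like receptor 7, which the labels give at 0.1 mM, an unusually high dose whose unit could not be checked. Stimulated cells received R848 alone, R848 with 1 µM apilimod (R848+apilimod) or R848 with 1 µM API09 (R848+API09). Apilimod inhibits the lipid kinase PIKfyve of endosomes and lysosomes and was developed as a drug against the interleukin-12 family, and the series design describes API09 as its inactive analog. RNA was taken from 2 medium samples at 0 h, and at 1, 3, 7 and 22 h from 1 of each arm, which gave 18 Affymetrix mouse 430 2.0 arrays. No arm received a compound without R848, and the model is a single transformed line. The labels do not say whether arrays came from separate cultures, so p-values reflect the spread among these arrays alone, and that spread may be technical. Of 10 macrophage markers, 9 were above the filter level on all 18 arrays, and their summed intensity ran from 49118 to 55658 in medium, 46643 to 55997 in R848, 44401 to 55852 in R848+API09 and 44506 to 56208 in R848+apilimod. The summed intensities of the T cell, B cell, fibroblast, epithelial, neutrophil and mast cell lists lay between 53.1 and 122 on every array. Each of these other lists had 1 marker above the filter level on all arrays, and the epithelial list had 2. Sums are weighted to the brightest genes, and the macrophage marker Csf1r itself fell with R848.

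Interleukin-6, leukaemia inhibitory factor and oncostatin M bind different receptor chains that share the signalling subunit gp130, encoded by Il6st, which activates JAK kinases and the transcription factor STAT3. STAT3 in turn drives inhibitors such as SOCS3. Csf1 encodes macrophage colony-stimulating factor, which keeps macrophages alive through the receptor Csf1r. Csf2 encodes granulocyte-macrophage colony-stimulating factor and Csf3 granulocyte colony-stimulating factor, which expand and mobilise myeloid cells. Toll-like receptor signalling raises many of these genes in macrophages through NF-kappa B, AP-1 and C/EBP factors, and several of their mRNAs carry AU-rich elements that hasten their decay.

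Promoter sequences were available for 4 of the 6 genes, Il6, Lif, Csf1 and Csf2, in RefSeq windows of mouse build GRCm38.p6, and Csf3 and Osm are named only. Il6 and Csf2 are shown because apilimod lowered both, and Lif because apilimod left no called difference there. Each run gives the 250 bases before the annotated start, read 5′ to 3′ on the gene's strand, and capitals mark matches, on either strand, to the stricter kappa B, AP-1 and C/EBP motifs described next. Matches to the looser kappa B motif are not marked.
Il6 (chr5:30012864-30013113, plus strand): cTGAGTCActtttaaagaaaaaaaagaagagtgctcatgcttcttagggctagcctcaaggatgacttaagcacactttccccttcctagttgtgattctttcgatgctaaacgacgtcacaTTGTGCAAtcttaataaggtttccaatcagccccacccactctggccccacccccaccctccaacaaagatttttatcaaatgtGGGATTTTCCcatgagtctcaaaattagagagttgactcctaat
Csf2 (chr11:54249900-54250149, minus strand): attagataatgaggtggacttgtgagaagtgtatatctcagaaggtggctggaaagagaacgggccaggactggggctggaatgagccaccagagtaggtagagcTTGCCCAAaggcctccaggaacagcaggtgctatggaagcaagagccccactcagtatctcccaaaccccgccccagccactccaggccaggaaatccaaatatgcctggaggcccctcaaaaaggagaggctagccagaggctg
Lif (chr11:4257318-4257567, plus strand): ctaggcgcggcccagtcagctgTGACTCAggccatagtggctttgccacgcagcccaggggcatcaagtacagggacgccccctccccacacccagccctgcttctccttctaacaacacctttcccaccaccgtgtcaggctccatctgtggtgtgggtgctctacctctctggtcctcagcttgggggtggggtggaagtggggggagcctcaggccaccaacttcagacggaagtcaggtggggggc

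The kappa B motif searched was GGG, any pair of bases, then TTTCC. It was found in the Il6 run from base -44 to -35 as GGGATTTTCC and in the Csf1 window from -154 to -145, and 1.63% of the 32851 promoter windows, each of 300 bases, held it. The Csf2 and Lif windows held no match. An AP-1 motif, TGANTCA, began at -249 in Il6 and at -228 in Lif, against 7.81% of all windows. A C/EBP motif, TTGCNNAA, began at -128 in Il6, where it reads on the opposite strand, and at -145 in Csf2, against 10.8% of all windows. None of the 4 windows held the CRE motif TGACGTCA, present in 1.79% of all windows, or TATAAA, present in 13.6%. A looser kappa B motif, GGG and CC with any 5 bases between them, was in each of the 4 windows and in 50.8% of all windows. Its matches overlap those of the stricter motif in Il6 and Csf1. These are matches of letters in a window, not measured binding.

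In the same assembly's gene order Osm and Lif are neighbouring protein-coding genes, and Csf2 lies next to Il3. With R848 alone Lif was brightest at 3 h and Osm at 7 h, and Il3 did not pass the intensity filter.

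R848 raised 5 of the 6 genes by 3 h, and apilimod then split them. Il6 and Csf2 were lower with apilimod, Csf3 and Osm were higher, and for Lif and Csf1 no difference passed the test. The tests use log2 of the intensity plus 16, which understates differences of dim genes. At each hour the R848 array and the R848+API09 array were fitted with a shared mean, called the R848 controls, and with the 2 medium arrays at 0 h these pairs gave the estimate of the spread (5 residual degrees of freedom before moderation). A gene was called at an adjusted p of 0.05, adjusted over all 12257 genes. In such bulk samples a change in the number of producing cells and a change in RNA per cell cannot be told apart.

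**Figure D1:**
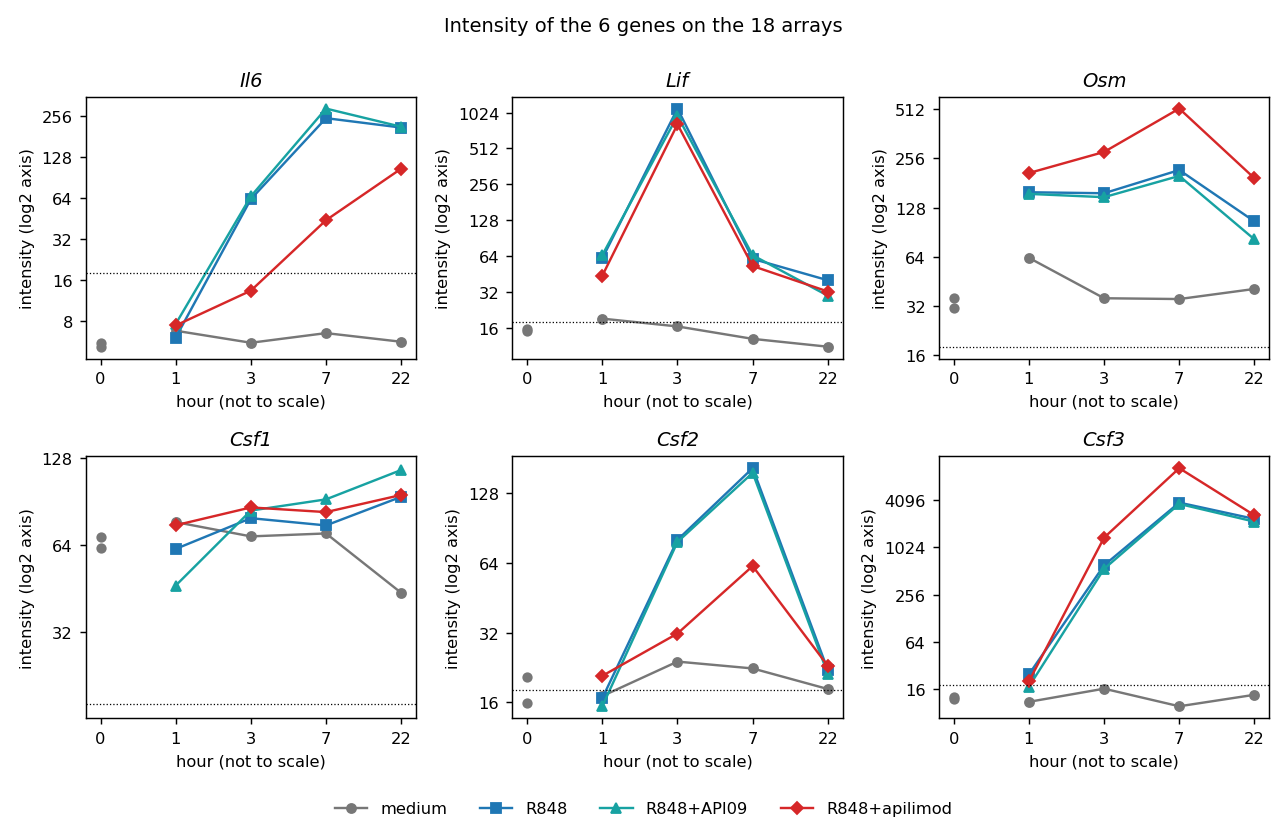
Intensity (log2 axis) of each of the 6 genes on all 18 arrays against hour (not to scale), by arm, 1 point per array, with the dotted line at the filter level of 18.05. At 7 h the R848+apilimod point lies below both R848 controls for Il6 and Csf2 and above both for Osm and Csf3.

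Against medium, R848 controls had 2 of the 6 members called at 1 h (background 0.702% of all genes), 5 at 3 h (15.4%), 5 at 7 h (29.8%) and 5 at 22 h (45.7%), all higher. The members' median difference was 0.22, 1.80, 2.17 and 0.98 log2 units in that order, beside medians over all genes between -0.04 and -0.01. R848+apilimod against medium called 2, 4, 5 and 5 members at these hours, on backgrounds of 0.604%, 16.5%, 31.3% and 47.4%. R848+apilimod against R848 controls called none at 1 h, 4 at 3 h, 4 at 7 h and 2 at 22 h, on backgrounds of 0%, 9.19%, 19.6% and 34.5%. At 1 h limma called no gene in that comparison, with 165 genes at an unadjusted p under 0.05 and a smallest adjusted p of 0.115, and 1 gene was called with trended and robust variances. The 4 members called at 3 h, and the 4 at 7 h, were Il6 and Csf2, lower with apilimod, and Osm and Csf3, higher, while at 22 h Il6 was lower and Osm higher.

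Il6, the founding member of its family and a driver of the acute phase response, was not detected above the filter level in medium, with intensities of 5.16 and 5.46 at 0 h and of 6.76, 5.51, 6.49 and 5.61 at 1, 3, 7 and 22 h. On the R848 arrays it read 6.01, 62.8, 247 and 211 at those hours, and on the R848+API09 arrays 7.58, 65.8, 291 and 214. With apilimod it read 7.39, 13.3, 43.9 and 105. Il6 was thus still at the medium level at 1 h in every arm, and from 3 h on the apilimod array lay between medium and both controls. Against medium the R848 controls were higher by 1.90 log2 units at 3 h, by 3.66 at 7 h and by 3.40 at 22 h. Apilimod lowered it, at log2 differences of -1.45 at 3 h (SE 0.103, adjusted p 4.72e-06), -2.25 at 7 h (adjusted p 8.1e-08) and -0.91 at 22 h (adjusted p 5.58e-05). In intensity the controls were 6.13-fold and 2.02-fold above the apilimod array at 7 and 22 h, and at 3 h the apilimod reading was itself under the filter level. The apilimod array differed from medium by 0.45 at 3 h, 1.41 at 7 h and 2.49 at 22 h. Between 7 and 22 h the change in the R848 effect did not pass (-0.26, adjusted p 0.226), while the gap to apilimod narrowed by 1.33 log2 units (adjusted p 0.000127). From 3 to 7 h the gap widened (-0.79, adjusted p 0.00977), a call that ended with a pseudocount of 1 (-0.40, adjusted p 0.445) or when the R848 array was the only control (-0.71, adjusted p 0.0505).

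Lif, a gp130 cytokine known for holding stem cells undifferentiated, gave a pulse. Its representative probe set read 14.9 and 15.5 in medium at 0 h and 19.1, 16.4, 12.9 and 11.1 at the later hours. R848 alone gave 61.1, 1107, 60.6 and 40.1, R848+API09 65.2, 960.3, 65.0 and 29.7, and R848+apilimod 43.8, 815, 52.8 and 32.2. The 3 stimulated arms peaked together at 3 h and had returned close to their 1 h level by 7 h. R848 controls exceeded medium by 1.17 log2 units at 1 h (adjusted p 0.000551), 5.01 at 3 h (adjusted p 8.08e-10), 1.45 at 7 h and 0.90 at 22 h. The rise from 1 to 3 h was 3.84 and the fall from 3 to 7 h -3.57, both called. Apilimod's array lay below both controls at 1, 3 and 7 h, with log2 differences of -0.40, -0.33 and -0.20, and none of these passed (adjusted p 1, 0.172 and 0.369). Their 95% intervals ran from -0.68 to -0.13 at 1 h, -0.61 to -0.05 at 3 h and -0.48 to 0.08 at 7 h. Without the R848+API09 array of 22 h the standard error of the 3 h difference was 0.0897 in place of 0.127, and it was called (adjusted p 0.0342). The call of R848+apilimod over medium at 1 h (0.77, adjusted p 0.0488) ended under 5 alternatives (adjusted p 0.101 to 0.475), among them leaving out either medium array at 0 h.

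Oncostatin M, the gp130 cytokine made mostly by myeloid cells, was raised by R848 from 1 h on and was raised further by apilimod at 3, 7 and 22 h. Osm read 36.0 and 31.3 in medium at 0 h and 63.1, 35.7, 35.3 and 40.7 at 1, 3, 7 and 22 h, so the 1 h medium array stood above the other 5. R848 alone gave 159, 157, 218 and 105, and R848+API09 155, 148, 200.3 and 81.9. R848+apilimod gave 209, 281, 517 and 194, above both controls at each of the 4 hours. The R848 controls were 1.13 log2 units above medium at 1 h (adjusted p 0.000684), 1.70 at 3 h, 2.13 at 7 h and 0.94 at 22 h (adjusted p 0.000136). Apilimod added 0.82 at 3 h (SE 0.125, adjusted p 0.00125), 1.25 at 7 h (adjusted p 2.55e-05) and 0.94 at 22 h (adjusted p 0.00018), or 1.84-fold, 2.48-fold and 2.07-fold in intensity. The 1 h difference of 0.37 did not pass (adjusted p 1). At 22 h the apilimod gain was as large in log2 units as the effect of R848 itself with the 2 control arrays pooled. The gain was 0.79 with R848 alone as the control. With R848+API09 alone it was 1.10, beside an effect over medium of 0.79.

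Csf1, the growth factor of macrophages themselves, had the narrowest range, from 43.8 to 116 on its representative probe set. Medium read 62.3 and 68.1 at 0 h and 76.8, 68.5, 70.1 and 43.8 later. R848 gave 62.0, 79.2, 74.8 and 93.8, R848+API09 46.4, 84.1, 91.9 and 116, and R848+apilimod 74.9, 86.2, 83.1 and 95.2. The medium array read above every stimulated array at 1 h and below every stimulated array at 3 and 7 h. No difference from medium was called at these hours on this probe set. R848 controls were called above medium at 22 h alone (1.01, 95% interval 0.67 to 1.35, adjusted p 0.000356), where the medium array had its lowest reading of the series. No apilimod difference passed, with 95% intervals of -0.27 to 0.41 at 3 h, -0.34 to 0.34 at 7 h and -0.46 to 0.23 at 22 h. At 1 h the interval, not adjusted for the number of genes, was wholly positive (0.04 to 0.72).

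Csf2, whose product matures and activates granulocytes and macrophages, was raised by 3 h, was brightest at 7 h and was back near the medium level by 22 h. It read 20.5 and 15.9 in medium at 0 h and 17.01, 24.0, 22.4 and 18.2 at the later hours. R848 gave 16.7, 80.5, 164 and 22.1, and R848+API09 15.4, 78.9, 157 and 21.2. With apilimod the readings were 20.8, 31.7, 62.1 and 23.0, so at 3 and 7 h they lay below both controls and at 22 h all 4 arms were within 5 intensity units of one another. The controls exceeded medium by 1.26 log2 units at 3 h (adjusted p 5.51e-06) and 2.20 at 7 h (adjusted p 3.58e-08), and by 0.14 at 22 h (adjusted p 0.281). Apilimod lowered Csf2, at log2 differences of -1.005 at 3 h (SE 0.0981, adjusted p 4.73e-05) and -1.18 at 7 h (adjusted p 5.66e-06), where the controls were 2.51-fold and 2.59-fold above it. Its 3 h array was not called above medium (0.26, adjusted p 0.172), whereas its 7 h array was (1.02).

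Csf3, the main growth factor of neutrophils, had the widest range of the 6, 8.65 log2 units. In medium it read 12.7 and 12.2 at 0 h and 11.1, 16.4, 9.78 and 13.7 later, all under the filter level. R848 gave 24.9, 603, 3771 and 2340.3, and R848+API09 17.4, 543, 3628 and 2161. R848+apilimod gave 20.3, 1354, 10322 and 2603. The 3 stimulated arms were thus close at 1 and 22 h, and at 3 and 7 h apilimod stood well above both controls. R848 controls exceeded medium by 0.45 log2 units at 1 h (adjusted p 0.336), 4.18 at 3 h, 7.17 at 7 h and 6.25 at 22 h. Apilimod added 1.22 at 3 h (SE 0.122, adjusted p 5.53e-05) and 1.48 at 7 h (adjusted p 5.41e-06), 2.36-fold and 2.79-fold in intensity. At 22 h the difference was 0.21 (95% interval -0.06 to 0.48, adjusted p 0.217). The loss of the apilimod gain from 7 to 22 h was itself called (-1.27, adjusted p 0.000515).

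**Figure D2:**
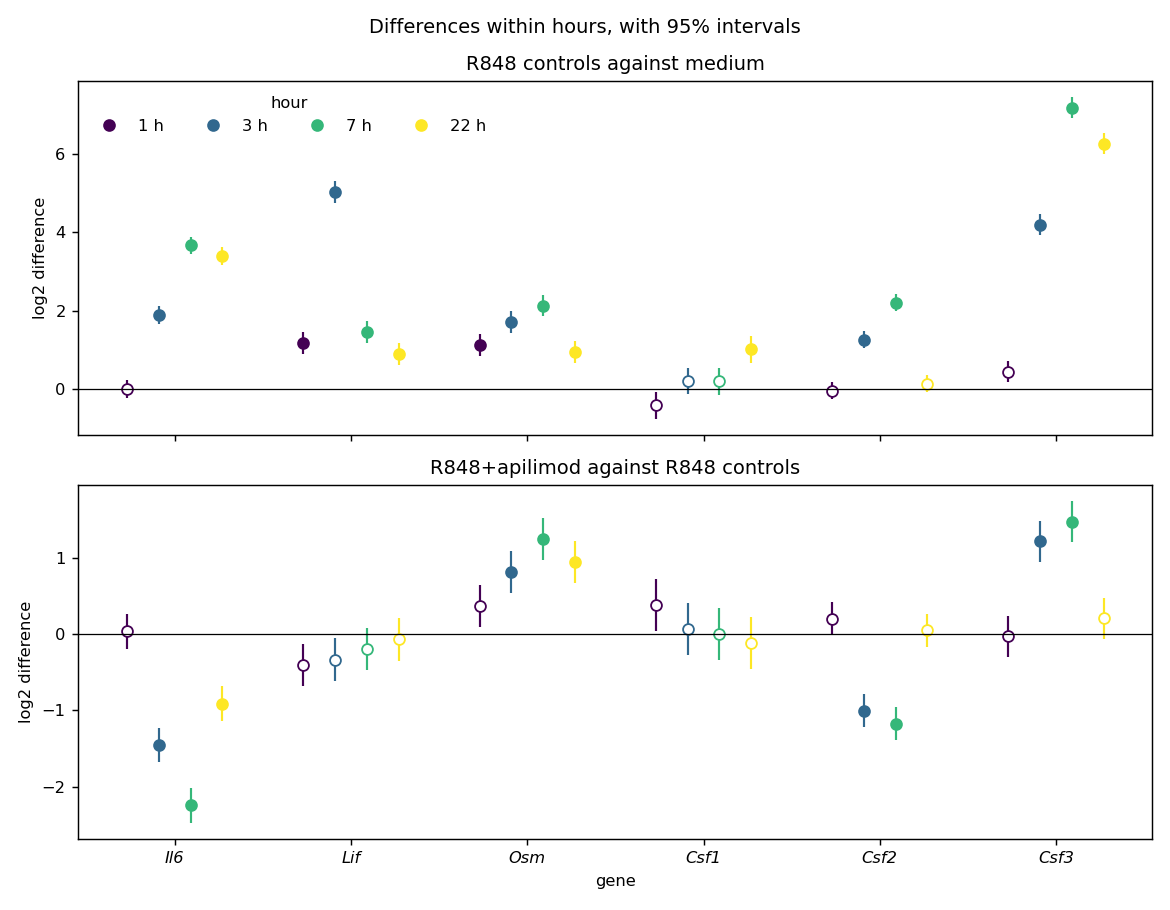
Log2 differences of the 6 genes at 1, 3, 7 and 22 h, for R848 controls against medium and for R848+apilimod against R848 controls, with bars for 95% intervals, filled points for called differences and open points for others. Il6 and Csf2 lie below 0 and Osm and Csf3 above 0 with apilimod at 3 and 7 h.

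The changes between successive hours separated these courses. Between 1 and 3 h the difference of R848 controls from medium changed in 4 members (7.53% of all genes), between 3 and 7 h in 4 (7.73%) and between 7 and 22 h in 5 (25.4%). From 3 to 7 h it grew for Il6 (1.76), Csf2 (0.94) and Csf3 (2.99) and shrank for Lif. From 7 to 22 h it shrank for Csf2 (-2.07), Osm (-1.19), Csf3 (-0.92) and Lif (-0.54) and grew for Csf1 (0.81). The difference of R848+apilimod from R848 controls changed in 3 members between 1 and 3 h (5.11%), in 1 between 3 and 7 h (4.76%) and in 3 between 7 and 22 h (20.1%). At the last step the gap narrowed for Il6 (1.33), which was still lower with apilimod at 22 h (-0.91). For Csf2 (1.23) and Csf3 no called gap was left at 22 h, and Csf2 had by then fallen in every stimulated arm. The change for Osm did not pass (-0.30, adjusted p 0.277). Without the R848+API09 array of 22 h that Osm change was called (-0.46, adjusted p 0.0238). The Lif change from 7 to 22 h was no longer called under 9 alternatives (adjusted p 0.0501 to 0.274), among them without that array (-0.40) and with R848 alone as the control (-0.36). That of Csf1 fell to 0.33 with the mean over its probe sets (adjusted p 0.103). With that mean the R848 effect on Csf1 instead grew from 1 to 3 h (0.75, adjusted p 0.00615). It then shrank from 3 to 7 h (-0.62, adjusted p 0.0181).

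Apilimod and API09 form the pair of related compounds in the series, tested at the same dose and hours. The API09 arrays followed R848 alone. Over the 24 pairs of members and hours, the R848+API09 reading differed from that of R848 by -0.32 to 0.27 log2 units, with a median absolute difference of 0.09 and 18 of the 24 under 0.25. The widest were Csf1 at 1 h, -0.32, and Osm at 22 h, -0.31. Set against API09 alone, with the spread of the same fit, apilimod was lower for Il6, at differences of -1.48 at 3 h (95% interval -1.74 to -1.22, adjusted p 1.74e-05), -2.36 at 7 h and -0.92 at 22 h, and for Csf2, at -0.99 at 3 h and -1.15 at 7 h. It was higher for Csf3 by 1.29 at 3 h and 1.50 at 7 h and for Osm by 0.85, 1.30 and 1.10 at 3, 7 and 22 h. These 10 differences were called, on backgrounds of 7.24% of all genes for 3 h, 16.4% for 7 h and 34.3% for 22 h. At 1 h no member and 0% of all genes were called. For Lif no difference between the 2 compounds was called at any hour, with 95% intervals of -0.55 to 0.09 at 3 h and -0.56 to 0.09 at 7 h. Nor was one called for Csf1, at -0.36 to 0.42 and -0.52 to 0.27. The intervals are not adjusted for the number of genes. At 1 h they were wholly negative for Lif (-0.77 to -0.12) and wholly positive for Csf1 (0.15 to 0.94).

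Over all hours, with arm as a term and hour as a block, 2 members were called for R848 against medium, on a background of 0.995%. They were Osm (1.54, SE 0.219, adjusted p 0.00587) and Csf3 (4.59), the latter a description for the reason given at the opening. Lif had a difference of 2.18 (adjusted p 0.0773) and Il6 one of 2.19. This fit asks for a difference held from 1 to 22 h, and effects that come and go add to its spread. Csf3's call ended under 6 alternatives (adjusted p 0.0591 to 0.382), among them without the 3, 7 or 22 h arrays or the R848+API09 array of 22 h, and that of Osm without the 3 h arrays (adjusted p 0.174). No member, and 0% of all genes, was called for apilimod against API09, apilimod against R848 or API09 against R848. In limma 1613, 1588 and 182 genes had an unadjusted p under 0.05 in that order. For apilimod against API09 the estimates were -1.19 for Il6 (95% interval -2.29 to -0.09), 0.91 for Osm (0.44 to 1.38), -0.46 for Csf2 (-1.15 to 0.23) and 0.80 for Csf3 (-1.28 to 2.87). Without the 1 h arrays, where no compound difference was called, Il6 (-1.59, adjusted p 0.0366) and Osm (1.08, adjusted p 0.0248) passed.

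Lif and Csf1 were read by more than 1 probe set. The other Lif probe set peaked at 3 h as well, at 413 in R848, 328 in R848+API09 and 329 in R848+apilimod, with a difference of 3.36 log2 units from medium. It was called at 7 h (0.55, adjusted p 0.0182), and not at 1 h (0.19) or 22 h (0.15), where the representative was called. For Csf1 the 3 probe sets that passed the filter disagreed in time. The representative, with a mean of 76.5 over the arrays, had no called difference at 3 h. The probe set with a mean of 24.5 read 56.5 in R848, 54.9 in R848+API09 and 41.0 in R848+apilimod at 3 h, against a median of 17.7 over the 6 medium arrays, a difference of 1.08 (adjusted p 2.71e-05). The probe set with a mean of 30.1 was called at 3 h too (0.75, adjusted p 0.00219), and neither of these was called at 22 h (0.20 and -0.05). The mean over the probe sets was called for Csf1 at 3 h (0.68, adjusted p 0.00056). A 3 h rise and a 22 h rise of Csf1 each rest on some of its probe sets, and the files do not say which transcripts these read. The fourth probe set stayed under the filter level on all 18 arrays.

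**Figure D3:**
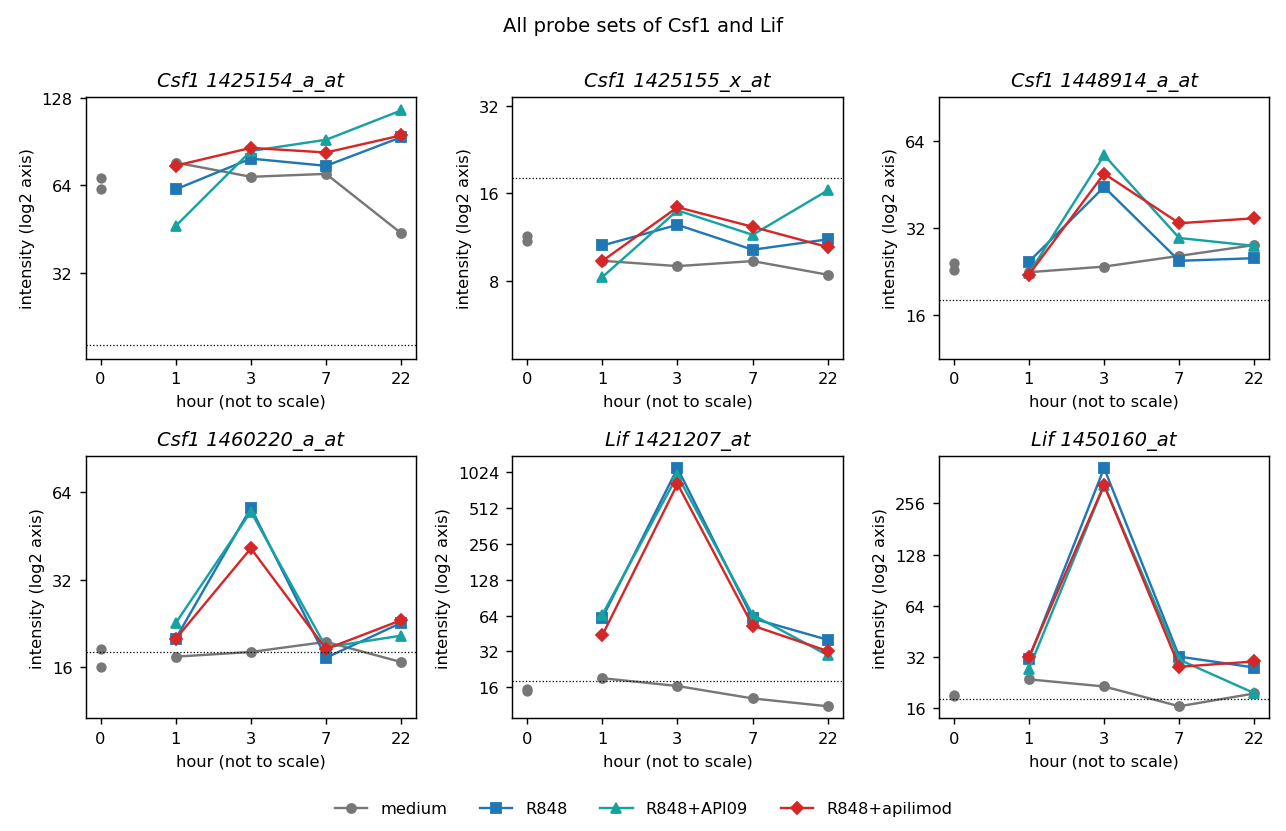
Intensity (log2 axis) of every probe set of Lif and Csf1 on all 18 arrays against hour (not to scale), by arm, with the dotted line at the filter level of 18.05. Both Lif probe sets peak at 3 h in the 3 stimulated arms, while the Csf1 probe sets differ in whether they rise at 3 h.

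Of the 12 receptor genes listed for these cytokines, 9 entered the tests. R848 raised 1 and lowered 1 at 3 h, raised 4 and lowered 1 at 7 h, and raised 2 and lowered 2 at 22 h, beside called shares over all genes of 15.4%, 29.8% and 45.7%. With apilimod 2 were higher than in the R848 controls and 1 was lower at 3 h, with 2 of each at 7 h, and 3 higher beside 1 lower at 22 h, where the shares over all genes were 9.19%, 19.6% and 34.5%. The list's median apilimod difference was 0.00, -0.05 and 0.14 log2 units at these hours, against -0.03, -0.02 and 0.03 over all genes. Lifr and Osmr, receptor chains for LIF and oncostatin M, were on the array and did not pass the intensity filter, and Il11ra1 was not analysed here.

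Il6ra, the chain that binds interleukin-6, had the largest apilimod difference among the 9 receptor genes tested. At 7 h it read 176 in medium, 163 in R848, 172 in R848+API09 and 25.9 in R848+apilimod, a difference of -2.13 log2 units (adjusted p 3.4e-07), or 6.48-fold lower than in the controls. R848 itself lowered Il6ra at 3 h (-1.02, adjusted p 0.000166) and at 22 h (-0.85), with -0.07 at 7 h between them. Apilimod lowered it further at 3 h (-0.59, adjusted p 0.00982) and 22 h (-0.54), and the 3 h call ended with R848 alone as the control (adjusted p 0.0664) or with the mean over its probe sets (-0.34, adjusted p 0.0756). Il6 and Il6ra were therefore both lower with apilimod at 3, 7 and 22 h. Il6st, the shared gp130 subunit, rose with R848 at 7 h (0.60, adjusted p 0.00231) and was lower with apilimod there (-0.37, adjusted p 0.0436), a call that ended under 9 alternatives (adjusted p 0.054 to 0.143). At 3 and 22 h its apilimod difference was not called with the main settings, and some alternatives called it higher. These were quantile normalization at 3 h (0.34), leaving out the R848+API09 array of 22 h at 3 h (0.33), and the mean over probe sets at 22 h (0.50).

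The receptors of the colony-stimulating factors went different ways. Csf1r, which marks the macrophage lineage, fell with R848 from 9453 in medium to 4929.6 in R848 and 4221 in R848+API09 at 7 h (-1.05, adjusted p 5.53e-05), with a difference of -1.55 at 22 h. Apilimod made no called difference in Csf1r with the main settings. Csf1r was called lower with apilimod at 7 h with the mean over its probe sets (-0.34), and at 22 h without the R848+API09 array of 22 h (-0.29). Csf2ra, the specific chain of the Csf2 receptor, read 758 in medium at 7 h against 1051 in R848 and 1133 in R848+API09 (0.52, adjusted p 0.0031), and 0.83 log2 units separated them at 22 h, where medium had dropped to 554. Csf2rb, the chain that carries the signal, rose at 7 h (1.60, adjusted p 1.72e-06) and was higher with apilimod at 3 h (0.88), 7 h (0.46) and 22 h (1.34, adjusted p 7.74e-06). The 7 h call ended with R848 alone as the control (0.36, adjusted p 0.106). At 22 h it read 568 with apilimod, 235 in R848, 195 in R848+API09 and 209 in medium. Its paralogue Csf2rb2, a chain of the mouse IL-3 receptor whose sequence is close to that of Csf2rb, was higher with apilimod by 1.45, 0.998 and 1.01 at 3, 7 and 22 h, and the pair's probe sets may share signal. Csf3r was called at 3 h alone (0.29, adjusted p 0.0468), a call that ended under 6 alternatives. Csf3, which apilimod raised at 3 and 7 h, had a receptor with no called apilimod difference.

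**Figure D4:**
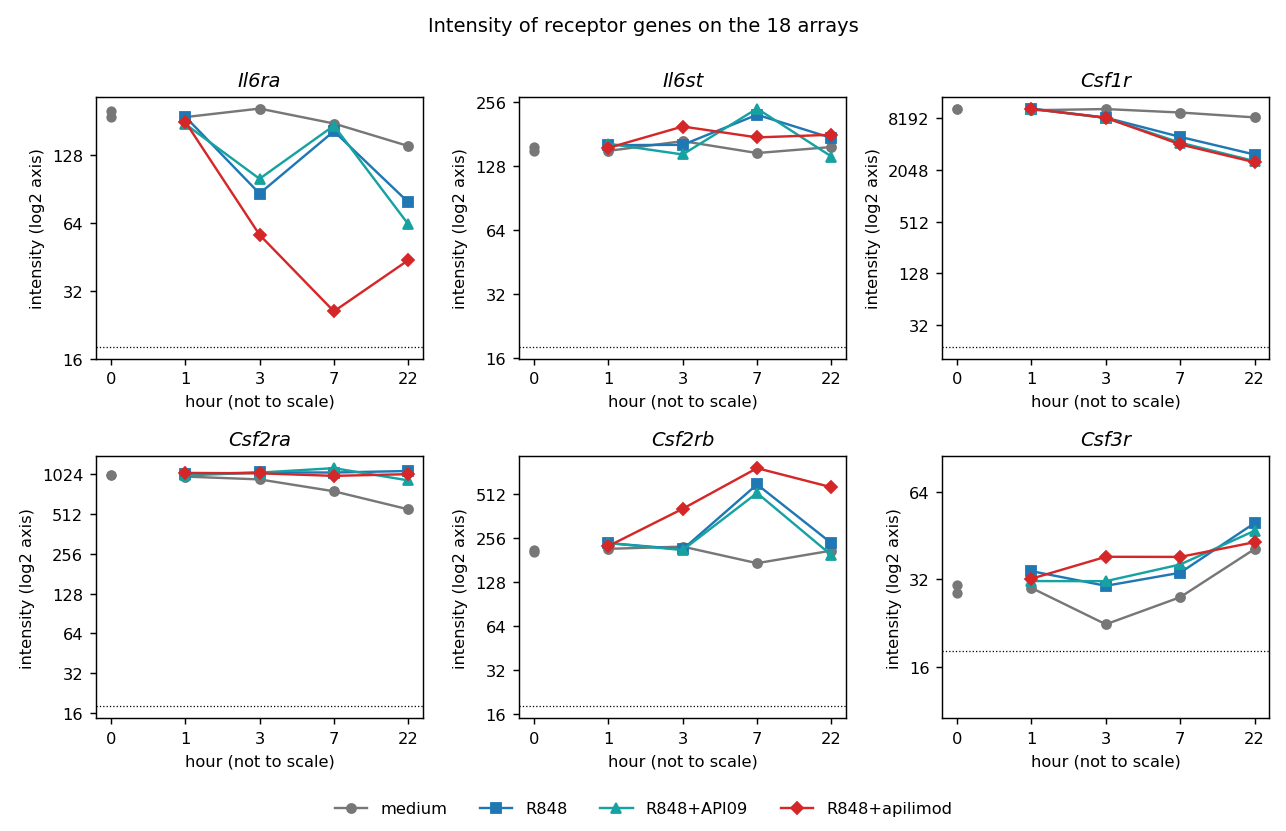
Intensity (log2 axis) of Il6ra, Il6st, Csf1r, Csf2ra, Csf2rb and Csf3r on all 18 arrays against hour (not to scale), by arm, with the dotted line at the filter level of 18.05. With apilimod Il6ra lies below both R848 controls and Csf2rb above them at 3, 7 and 22 h.

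Of 12 other ligands of the same 2 families, 5 entered the tests. R848 lowered 1 at each of 3, 7 and 22 h and raised 1 at 22 h, beside 15.4%, 29.8% and 45.7% of all genes called. Apilimod raised 1 at 22 h and changed none at 3 or 7 h, beside 9.19%, 19.6% and 34.5%. Kitl, the stem cell factor of the kit receptor, fell with R848, at log2 differences of -1.49 at 3 h and -2.40 at 7 h (adjusted p 6.13e-08), and was higher with apilimod at 22 h (1.12, adjusted p 2.8e-05). Ctf1, cardiotrophin 1 of the gp130 family, was called at 22 h (0.31), though not with R848 alone as the control (0.24, adjusted p 0.118). Il11, Clcf1 and Il34 had no called difference in these comparisons, and Il3, Il5 and Il31 did not pass the intensity filter. Cntf, Il27 and Flt3l were among those not analysed here.

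JAK-STAT kinases, factors and adaptors had 10 of 12 listed genes tested. R848 raised 3, 5 and 8 of them at 3, 7 and 22 h and lowered none, and apilimod lowered 2, 4 and 1 and raised 0, 1 and 1. The shares over all genes, in both directions, were 15.4%, 29.8% and 45.7% for R848 and 9.19%, 19.6% and 34.5% for apilimod, so the 2 called with apilimod at 22 h were below that share. Jak2, the kinase bound to the receptors of gp130 cytokines and of Csf2, read 141 in medium at 3 h, 654 in R848, 621 in R848+API09 and 258 in R848+apilimod, with a difference of 2.05 from R848 and -1.25 from apilimod (adjusted p 6.47e-05). Stat3, the factor that gp130 activates, rose at 7 h from 296 in medium to 1102 in R848 and 1198 in R848+API09 (1.90, adjusted p 1.55e-07), and read 813 with apilimod (-0.49, adjusted p 0.00502). Stat5a, a factor used by the Csf2 receptor, rose by 1.55 at 3 h. Ptpn6 is a phosphatase that opposes these kinases, though the list carries it, and it was lower with apilimod, at log2 differences of -0.54, -1.44 and -1.11 at 3, 7 and 22 h. Gab1 did not pass the filter.

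Inhibitors of the pathway had 12 of 13 genes tested, and apilimod lowered 3, 5 and 4 of them at 3, 7 and 22 h and raised 0, 0 and 1, beside 9.19%, 19.6% and 34.5% of all genes called. Socs3, which binds gp130 and shuts it off, read 58.8 in medium at 7 h, 7636 in R848, 7201 in R848+API09 and 2256 in R848+apilimod. The R848 effect on Socs3 was already 3.32 log2 units at 1 h, when Lif and Osm were called and Il6 was not. It was 6.63 at 7 h (adjusted p 2.21e-11). Apilimod lowered Socs3, at log2 differences of -0.66 at 3 h, -1.71 at 7 h and -2.78 at 22 h (adjusted p 2.24e-08). The gap widened from 7 to 22 h (-1.07, adjusted p 0.000459). A link between Socs3 and these cytokines was not tested. Cish, a target of STAT5 downstream of the colony-stimulating factors, rose by 1.03 at 3 h and was lower with apilimod, at log2 differences of -0.65 at 3 h and -0.67 at 7 h. The 3 h call ended with R848+API09 alone as the control (-0.55, adjusted p 0.0571). Ptpn2, a nuclear phosphatase of STAT proteins, rose at 22 h (1.33) and was lower with apilimod there (-1.50). Socs5 rose at 3 h (0.98), where apilimod lowered it (-0.75), and Socs2 did not pass the filter.

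Listed target genes of STAT3 numbered 21, all tested, and 5, 15, 16 and 14 were raised by R848 at 1, 3, 7 and 22 h, against 0, 0, 1 and 3 lowered. The list's median difference was 1.16, 1.68 and 1.54 at 3, 7 and 22 h beside -0.03, -0.04 and -0.03 over all genes. The shares of all genes called at these 3 hours were 15.4%, 29.8% and 45.7%. With apilimod 9, 13 and 10 were lower and 3, 2 and 3 higher, beside 9.19%, 19.6% and 34.5% of all genes, with medians of -0.13, -0.65 and -0.06 beside -0.03, -0.02 and 0.03. Many of these genes also respond to NF-kappa B, and Socs3 is in this list too. Timp1, an inhibitor of matrix proteases, read 1260 in R848 and 899 in R848+API09 at 22 h but 16.2 with apilimod and 24.3 in medium, a difference of -5.07 (adjusted p 2.24e-08). Lcn2, a siderophore-binding protein of the acute phase, was raised by R848 at 22 h by 7.75. That rise is a description, since Lcn2 was under the filter level on every medium array. Apilimod lowered Lcn2, at log2 differences of -3.14 at 7 h and -1.47 at 22 h. Saa3, an acute phase apolipoprotein, was raised by 5.66 at 7 h, where its apilimod difference did not pass (-0.33), and was lower with apilimod at 22 h (-0.70, adjusted p 0.000722).

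Regulators of cytokine gene transcription had 20 of 22 genes tested. Apilimod lowered 10, 12 and 5 of them at 3, 7 and 22 h and raised 2, 4 and 3, beside 9.19%, 19.6% and 34.5% of all genes called, with medians of -0.39, -0.71 and 0.01 beside -0.03, -0.02 and 0.03 over all genes. Nfkbiz, the nuclear I kappa B protein that Il6 transcription needs, was raised by 4.27 at 1 h and 5.44 at 7 h and was lower with apilimod, at log2 differences of -0.46, -1.14 and -1.42 at 3, 7 and 22 h (adjusted p 0.00585, 3.53e-06 and 7.01e-07). Cebpd, a C/EBP factor of the acute phase, read 4032 in R848, 3539 in R848+API09 and 934 in R848+apilimod at 7 h (-2.00, adjusted p 2.16e-07). Rel, an NF-kappa B subunit that acts on Csf2 and Il6, was lower, at log2 differences of -0.77 at 3 h and -0.88 at 7 h, and the 3 h call ended with a pseudocount of 1, with no filter and with R848+API09 alone as the control (adjusted p 0.0529 to 0.0619). Atf3, a stress-induced factor known to restrain Il6, went the other way: it read 552 in R848, 591 in R848+API09 and 2939 in R848+apilimod at 7 h, and apilimod raised it by 1.59, 2.33 and 0.90 at 3, 7 and 22 h (adjusted p 2.31e-05, 4.87e-07 and 0.000597). Fosb did not pass the filter, and Nfkb1 was not analysed here.

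Regulators of cytokine mRNA decay had 14 of 15 genes tested. Apilimod raised 1 and lowered 2 at 3 h, raised 1 and lowered 3 at 7 h, and lowered 7 at 22 h, beside 9.19%, 19.6% and 34.5% of all genes called. Zc3h12a, the nuclease that cuts Il6 mRNA, was raised by R848 by 3.88 at 3 h and 3.10 at 7 h and had no called apilimod difference (-0.15 and -0.25). Zfp36, which binds AU-rich elements of Csf2 and other cytokine mRNAs and speeds their decay, read 3758 in R848, 3750.3 in R848+API09 and 551 in R848+apilimod at 7 h (-2.73, adjusted p 1.22e-08). Zc3h12c, a relative of Zc3h12a, was higher with apilimod at 7 h (0.88, adjusted p 0.000822). Arid5a, which protects Il6 mRNA from Zc3h12a, was raised by R848 at 7 h (1.69) and was lower with apilimod there (-0.92, adjusted p 0.00363). Cnot1 was not analysed here.

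The genes whose courses lay nearest to each member were found from the mean absolute difference, over 16 arrays, between their log2 changes from medium at 0 h. For Il6 these were Zbp1 (0.43 log2 units), Ifi202b (0.47) and Eva1b (0.50), and at 7 h Zbp1 read 772 in R848, 934 in R848+API09 and 283 in R848+apilimod. For Csf2 they were Ifit1bl1 (0.18), Ifih1 (0.21) and Helz2 (0.23), of which Ifih1 read 1763, 1566 and 734 on the same arrays. For Osm they were Maff (0.36), Cflar (0.51) and Ier3 (0.55), and Maff read 80.5, 76.7 and 340.2. Lif had Stx11 (0.54), Sowahc (0.65) and Traf1 (0.69), and Csf3 had Saa3 (0.82), Tnfrsf1b (1.07) and Ptgs2 (1.08). Lif and Csf3 span more log2 units than the other members compared, and distances were not scaled to the span. At 7 h Ptgs2 read 6539 in R848, 7020 in R848+API09 and 5460 in R848+apilimod. Saa3 and Tnfrsf1b also lay below both controls with apilimod there, unlike Csf3, though above them at 3 h. Stx11 read 541, 518 and 1058 at 3 h, where Lif, Sowahc and Traf1 lay below both controls with apilimod. A near course was thus not always a shared apilimod difference. Csf1 spans under 2 log2 units and was left out. The likeness is a description over arrays that share arms and hours.

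Array medians ran from 17.5 to 19.2, and the upper quartile was lower at 22 h in the stimulated arms, 87.0 on the R848+API09 array, 101 on R848+apilimod and 104 on R848, against 111 to 119 on the others. The R848+API09 array of 22 h also had the brightest 18S control probe sets, a mean log2 intensity of 10.5 against 7.94 to 10.1 on the others. Without it no called difference of a member reversed within hours. The array number limits the precision, with 1 array for each arm at each later hour.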

How the data were processed

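Per the labels, total RNA was extracted with RNeasy, amplified with the NuGEN Ovation kit and hybridised to 1-colour arrays. The authors deposited 1 intensity for each probe set on each array, linear and above 0 judging by the values. How background, summarisation and normalization were handled is not given in the sources used here; limma is named, without a version, in the submitters' processing notes. Of 45101 probe sets, 34945 had 1 gene symbol and were usable, 932 had several and 9160 had none, and 64 were control probe sets. Probe sets above 18.05 on at least 3 arrays were kept, and each gene took the probe set with the highest mean. Tests on log2(intensity + 16) used limma 3.58.1 in R 4.3.3, two-sided, with Benjamini-Hochberg adjustment over 12257 genes, 5 residual degrees of freedom within hours and 10 over hours. Lone arrays are assumed to vary like the paired ones. The code was tested on simulated data.

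The members, gene lists and tests were chosen with earlier results of these data known, so no list is independent evidence. From each list the text names up to 4 genes with the largest called difference, and a fixed set of receptors and regulators. Promoter windows and gene order came from RefSeq, GRCm38.p6, and Csf3 and Osm had no window in the table used. Alternatives were quantile normalization, median centring, a pseudocount of 1, no filter, a filter at the 75th percentile, the mean over probe sets, trended robust variances, single control arms, no hour block and arrays or hours left out. The test of each probe set and the fit without the R848+API09 array of 22 h were chosen after seeing the data.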

Additional observations from a re-analysis of the deposited data

Results flagged for a closer look

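The values here are differences of 1 contrast between 2 successive hours, on the log2 scale of intensity plus 16, tested in the same limma fit. Each passed the test of the difference between hours with the settings of the report. For Il6, Lif and Csf3 the changes of the R848 effect against medium are descriptions, since these genes passed the intensity filter only with stimulated arrays. The Lif change from 7 to 22 h lost its call under 9 alternatives (adjusted p 0.0501 to 0.274), the Csf1 change with the mean over probe sets (0.33, adjusted p 0.103), and the apilimod change of Il6 from 3 to 7 h with a pseudocount of 1 or R848 alone as the control (adjusted p 0.445 and 0.0505).

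The R848 effect against medium grew from 1 to 3 h for Il6 (1.90, adjusted p 1.81e-05), Lif (3.84, adjusted p 6.77e-07), Csf2 (1.30, adjusted p 0.000167) and Csf3 (3.74, adjusted p 6.77e-07). It grew again from 3 to 7 h for Il6 (1.76, adjusted p 4.5e-05), Csf2 (0.94, adjusted p 0.00202) and Csf3 (2.99, adjusted p 3.41e-06), while that on Lif shrank (-3.57, adjusted p 1.55e-06). From 7 to 22 h it shrank for Csf2 (-2.07, adjusted p 8.07e-06), Osm (-1.19, adjusted p 0.000885), Csf3 (-0.92, adjusted p 0.00321) and Lif (-0.54, adjusted p 0.0469), and it grew for Csf1 (0.81, adjusted p 0.0202), where medium fell.

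The difference of R848+apilimod from the R848 controls turned more negative from 1 to 3 h for Il6 (-1.49, adjusted p 0.000143) and Csf2 (-1.21, adjusted p 0.00038) and more positive for Csf3 (1.25, adjusted p 0.00134). It moved further down for Il6 from 3 to 7 h (-0.79, adjusted p 0.00977). From 7 to 22 h it moved back for Il6 (1.33, adjusted p 0.000127), Csf2 (1.23, adjusted p 0.000149) and Csf3 (-1.27, adjusted p 0.000515). At that last step the R848 level of Csf2 had itself returned to near the medium level, and that of Il6 had not.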

How the results depend on the processing

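No called difference of a member reversed under the alternatives tried. Within hours 784 of 792 alternative values of the members kept direction and side of the threshold, between hours 400 of 420, and over hours 290 of 304. The apilimod differences of Il6, Csf2, Csf3 and Osm called at 3 and 7 h kept their calls under each alternative that tested them, and the filter at the 75th percentile left out Csf1 and Csf2. Where a member's count of calls moved, the cause was not tested. R848+apilimod against medium at 1 h called 1 member in place of 2 with quantile normalization, no filter, the mean over probe sets or without either medium array at 0 h. The apilimod change from 3 to 7 h called 0 with a pseudocount of 1 or R848 alone as the control and 2 without the R848+API09 array of 22 h, in place of 1. The R848 change from 7 to 22 h called 3 in place of 5 with the filter at the 75th percentile or the mean over probe sets. Over hours, R848 against medium called 4 with a pseudocount of 1 and 1 with no filter, no hour block, or without the R848+API09 array of 22 h or the 3, 7 or 22 h arrays, in place of 2. Apilimod against API09 called 2 without the 1 h arrays, in place of 0. Among other named genes, Socs5 reversed for R848 controls against medium at 22 h with the mean over probe sets (-0.63, from 0.09).

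Counts over all genes moved too. Without the R848+API09 array of 22 h, R848 controls against medium called 3032 genes in place of 1891 at 3 h, R848+apilimod against R848 controls 1870 in place of 1126 and R848+apilimod against medium 3306 in place of 2028. The R848 change called 1698 in place of 923 from 1 to 3 h and 1927 in place of 947 from 3 to 7 h, where either control arm alone gave 621. The apilimod change called 1070 in place of 626 and 1187 in place of 584 at these steps, and 364 or 381 with R848 or R848+API09 alone at the later one. From 7 to 22 h R848 alone gave 1563 in place of 2458. Over hours R848 against medium called 122 genes, with 11 (no hour block), 60 (no filter), 199 (quantile normalization), 207 (filter at the 75th percentile) and 14 to 1164 when an hour was left out. The compound comparisons called 545 against API09 and 481 against R848 without the 1 h arrays, in place of 0. No pairing by replicate was possible because the arms share no replicate numbers beyond the 2 medium arrays at 0 h. The fit over hours matched the arms by hour alone. Dim readings limit Il6 and Csf3 in medium, where all arrays were under the filter level.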
